A study of Homo sapiens with 18 samples.

Results

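A set of 10 noncoding genes that carry small nucleolar RNAs (snoRNAs) in their introns was examined in PC-3 cells: GAS5, SNHG1, SNHG5, SNHG6, SNHG7, SNHG8, SNHG12, SNHG15, SNHG16 and ZFAS1. They were taken by name, through their NCBI Gene IDs, and are 10 of the 28395 Gene IDs in the count table. All 10 passed the filter on low counts, which left 15189 genes to test. PC-3 is an established human prostate cancer line, so the libraries are replicate pools of 1 line. Cells were detached and, as a suspension, driven through a syringe and a fine needle, a brief exposure to high fluid shear stress (sheared), or left in suspension meanwhile (static). Both were then held unattached in coated wells, in serum-free medium with insulin, transferrin, selenium and albumin, and collected after 3, 12 or 24 h. Each of the 6 groups had 3 libraries of RNA from the cytosolic fraction, and a sheared library and the static library with its number and time are partners, made from the same pool per the series' design text. The study asked how brief shear alters cancer cells.

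A snoRNA host gene is transcribed and spliced like a messenger RNA, and the snoRNAs are released from its introns in the nucleus, where they guide chemical modification of ribosomal RNA. The spliced exons of the noncoding hosts are exported, and because they hold only short open reading frames, ribosomes that read them stop early and the RNA is broken down by nonsense-mediated decay, which depends on translation. Many hosts, coding and noncoding, start with a terminal oligopyrimidine (TOP) tract, the same run of C and T that starts the messengers of ribosomal proteins and ties their translation to growth signals. Such host RNAs are known to accumulate when translation or growth slows, which gave GAS5 (growth arrest-specific 5) its name.

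The start of the annotated transcripts is shown because it is what most of the 10 genes share with ribosomal protein messengers. A tract was counted where a transcript began with a C followed by at least 4 letters that were each C or T, on the sense strand, in GENCODE 29 (build GRCh38). The first 30 bases are given 5′ to 3′ with the tract in capitals. They are those of the start shared by most tract-bearing transcripts of the gene, or by most transcripts where no tract was found. For SNHG15 no start was shared, and that of 1 of its 10 transcripts is shown.

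GAS5, chr1:173867960-173867989, minus strand: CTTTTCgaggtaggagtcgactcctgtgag
SNHG16, chr17:76557769-76557798, plus strand: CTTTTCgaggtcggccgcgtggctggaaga
SNHG1, chr11:62855450-62855479, minus strand: CTCCTgtctgcaggatttacgcgcacgttg
SNHG8, chr4:118278758-118278787, plus strand: CTTTCacattcgggaagcgtcgggattagg
ZFAS1, chr20:49278642-49278671, plus strand: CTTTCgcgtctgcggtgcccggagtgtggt
SNHG7, chr9:136728155-136728184, minus strand: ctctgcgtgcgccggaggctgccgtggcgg
SNHG15, chr7:44986805-44986834, minus strand: tccactgagttgacacgcagacgcagcctc

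GAS5 and SNHG16 were annotated with the same tract of 6 letters followed by the same 5 bases. At least 1 annotated transcript with a tract was found for 8 of the 10 genes (80%), against 3577 of 35982 genes with transcripts of the same kinds (9.94%). SNHG7 and SNHG15 had none. Most annotated transcripts lack the tract. It starts 6 of 29 for GAS5, 2 of 8 for SNHG16 and 3 of 10 for ZFAS1. The shares were 1 of 5 for SNHG8 and 1 of 25 for SNHG1. Among genes not shown they were 3 of 23 for SNHG5, 4 of 17 for SNHG12 and, as a majority, 3 of 5 for SNHG6. The shown starts of GAS5, SNHG1 and ZFAS1 lie well inside their annotated genes. These extend to base 173868882 for GAS5 and 62855914 for SNHG1, and begin at 49278178 for ZFAS1. The shown SNHG1 start also lies downstream of the snoRNA SNORD25 (bases 62855564 to 62855632). Of 27 ribosomal protein genes that host snoRNAs, 22 (81.5%) had such a transcript. Counted over transcripts, the shares were 23 of 136 for the 10 host genes (16.9%), 64 of 306 for the ribosomal protein hosts (20.9%) and 4689 of 182294 for all genes (2.57%). An annotated start is not a mapped start in these cells, and the count describes letters only.

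The libraries held 16400487 to 25862360 counts. The 10 genes took 0.0489% to 0.0802% of all counts, of which SNHG16 alone gave 50.0% to 63.8%. Epithelial markers of the line were well detected, with KRT8 at 12985 to 38098 and KRT18 at 9664 to 24231 counts per library. Of the markers of other cell types, KLK3 had at most 1 count, CD3E at most 4, HBB at most 8, PTPRC at most 14 and COL3A1 at most 44, whereas COL1A1 had 276 to 804, PECAM1 227 to 2128 and TMPRSS2 566 to 2756. By edgeR's test of sheared against static cells, COL1A1 rose at 3 h (1.19 ± 0.16, adjusted p = 0.000298) and fell by 0.48 at 24 h (adjusted p = 0.0471), and PECAM1 fell by 0.67 at 12 h (adjusted p = 0.00689). The part of these markers in the results was not tested. MALAT1, an RNA held in the nucleus and used as a mark of nuclear carry-over, had 6.90 to 49.3 CPM of total counts (CPM being read counts scaled to library size), and the highest value was in sheared 24 h replicate 3, which also had the lowest scaling factor (0.721). MALAT1 did not pass the test at 3 h (log2 fold change -0.82, adjusted p = 0.778), 12 h (-0.18, 0.874) or 24 h (0.70, 0.478). Its CPM of total counts nevertheless did not overlap at 3 h, with 26.6 to 31.7 in static and 14.9 to 16.1 in sheared cells, or at 12 h, with 38.8 to 42.9 and 28.2 to 37.6, and the 3 h difference passed in 3 of 15 alternatives (adjusted p from 8.25e-06 to 1). The list of nuclear-retained RNAs also stood apart at 12 h on that scale. Its summed CPM of total counts was 301 to 331 in static libraries against 255 to 286 in their partners. The test used TMM scaling factors, which at 12 h were 1.08 to 1.11 in static and 0.960 to 1.04 in sheared libraries. Divided by these factors, both 12 h ranges overlap, whereas those of MALAT1 at 3 h do not. The part of nuclear RNA in the results at these times was not tested. The 3 h libraries carry a batch label of their own, so levels at 3 h and later times cannot be told apart from batch, whereas sheared and static libraries of a time share it.

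Levels between genes were compared as CPM, here and below scaled by TMM factors, per kilobase of exon, with all annotated exons of a gene merged. SNHG16 was highest, with a mean level of 71.7 CPM per kb over the 18 libraries, followed by SNHG6 at 49.2 and ZFAS1 at 40.5. A middle group held SNHG8 at 15.1, SNHG1 at 11.2 and GAS5 at 9.86. The lowest levels were those of SNHG5 (5.15), SNHG15 (2.75), SNHG7 (1.46) and SNHG12 (1.07). The order held in all 18 libraries between ZFAS1 and SNHG8 and between GAS5 and SNHG5. It held in 16 libraries between SNHG16 and SNHG6 and between SNHG15 and SNHG7, and in 17 between SNHG6 and ZFAS1. SNHG8 lay above SNHG1 in 13 libraries and SNHG5 above SNHG15 in 13. SNHG7 lay above SNHG12 in 12 and SNHG1 above GAS5 in only 8. The order within those pairs was not fixed, and for SNHG1 and GAS5 it changed with time. In static cells at 3 h SNHG1 had 12.2 to 14.4 CPM per kb and GAS5 6.37 to 7.08. At 24 h static cells had 7.09 to 7.44 for SNHG1 and 9.67 to 10.8 for GAS5. The same change was seen in sheared cells. SNHG5 lay above SNHG15 in every library of 12 h and 24 h. Merged exons include retained introns, which lengthen the divisor and lower the level on this scale.

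**Figure D1:**
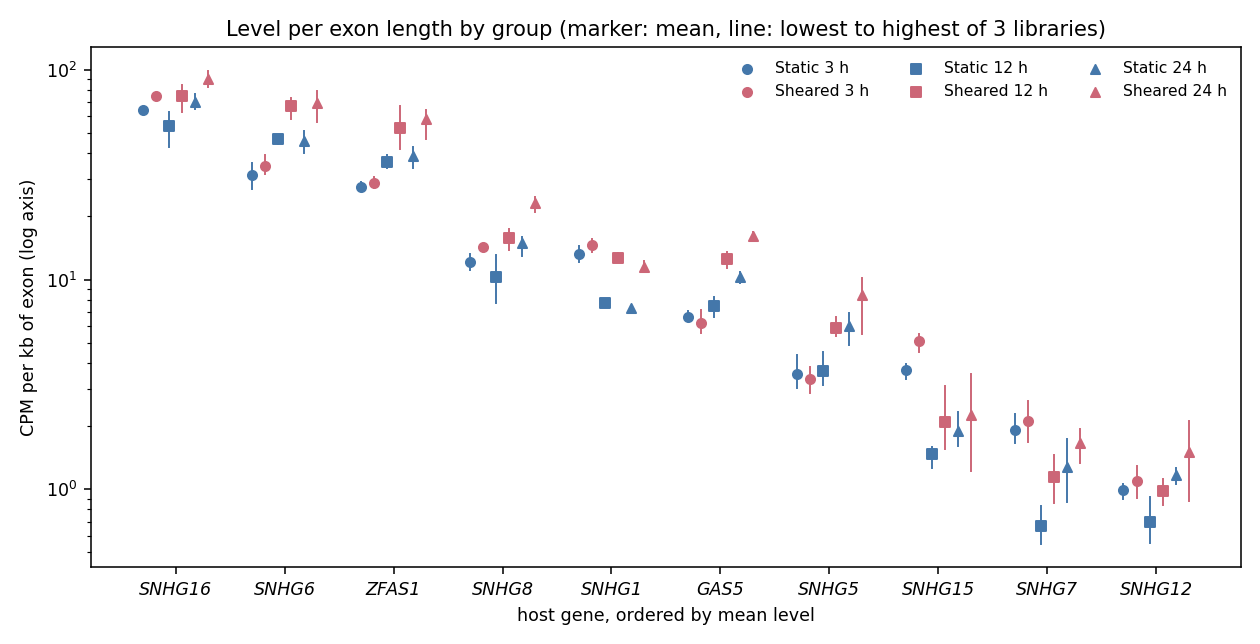
Level of each host gene in CPM per kb of exon, on a log axis, with genes ordered by their mean over 18 libraries; markers are means of the 3 libraries of a group and lines run from the lowest to the highest library. SNHG16, SNHG6 and ZFAS1 lie above the other 7 genes in the group means, and the markers of sheared cells lie above those of static cells at 12 h and 24 h for all 10 genes.

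Shear raised most of the 10 RNAs at 12 h and 24 h. At 12 h, 8 of 10 rose and 0 fell by edgeR's quasi-likelihood test with Benjamini-Hochberg adjustment over all genes tested, where 6.29% of all genes rose and 4.55% fell. The folds ran from 1.40 for SNHG16 to 1.70 for SNHG7. At 24 h, 6 of 10 rose and 0 fell, against 9.11% and 8.07% of all genes, with folds of 1.29 for SNHG16 to 1.57 for SNHG1. The median log2 fold change of the 10 genes was 0.58 at 12 h and 0.52 at 24 h, beside -0.01 and -0.02 for all genes. At 3 h, 0 of 10 rose or fell, where 1.12% of all genes rose and 0.342% fell, and the median was 0.14 beside 0.01 for all genes. In bulk RNA, fewer cells of a kind and less RNA per cell cannot be told apart. Without the block for the pool, 2 genes rose at 12 h and 5 at 24 h. The 12 h count was 3 without replicate 1 of that time (GAS5, SNHG1 and SNHG16) and 2 without replicate 2 (GAS5 and SNHG1). The direction at 12 h was upward for all 10 genes under every alternative run.

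**Figure D2:**
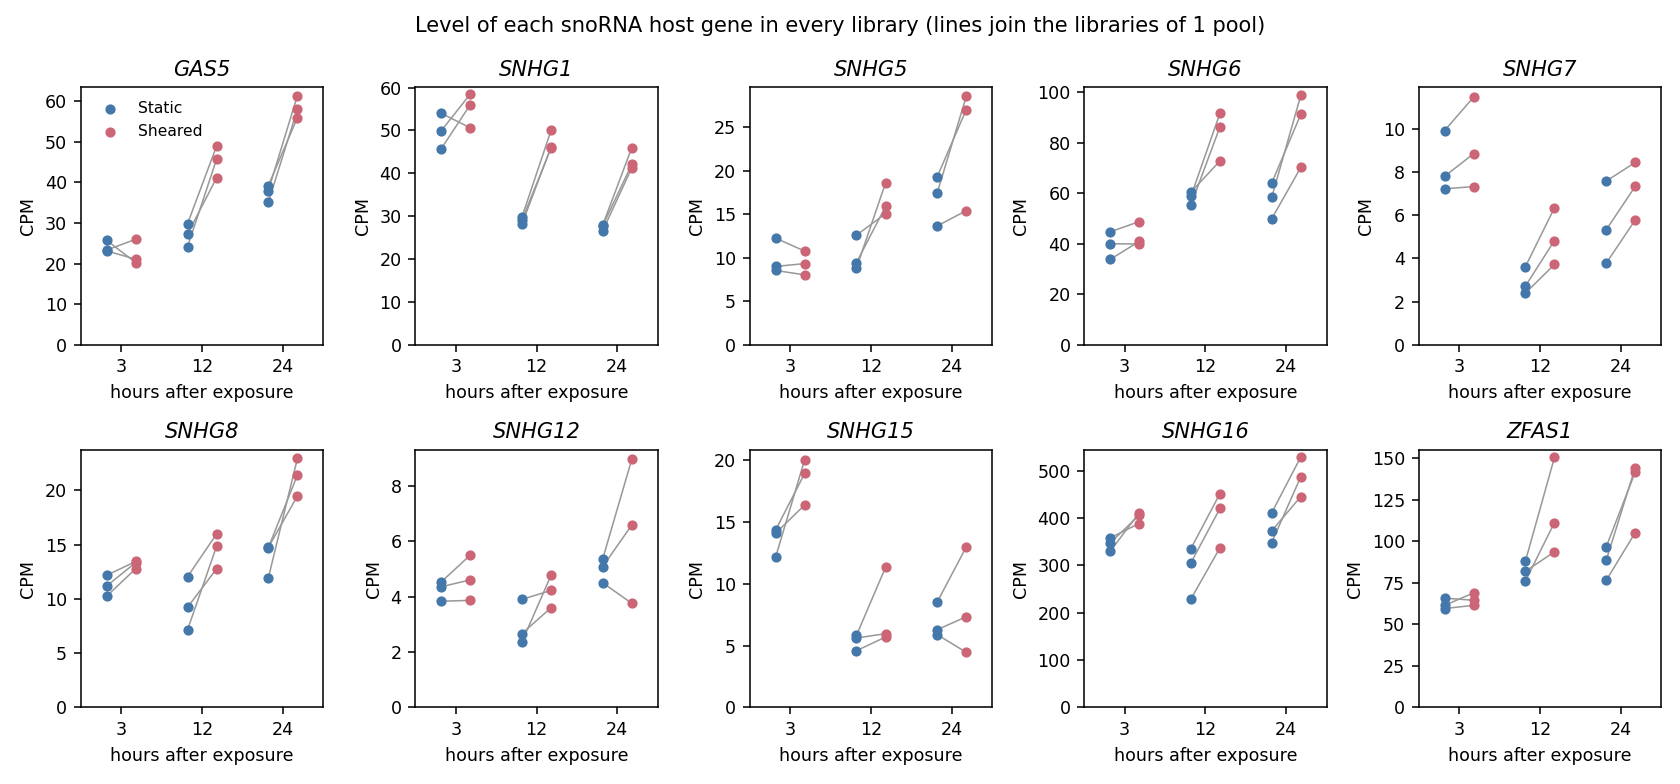
CPM of each host gene (vertical axis from 0) in every library against hours after exposure, with static libraries in blue, sheared libraries in red and grey lines between the 2 libraries of a pool. At 12 h the lines rise in all 3 pools for all 10 genes, and at 24 h they rise except for SNHG12 in pool 2 and SNHG15 in pool 3.

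GAS5, which hosts box C/D snoRNAs (guides of ribose methylation) and is the best known of these RNAs as a target of nonsense-mediated decay, lies at chr1:173863900-173868882. At 12 h its level was 29.8, 24.2 and 27.3 CPM in static replicates 1, 2 and 3 and 49.0, 45.8 and 41.1 CPM in their sheared partners. At 24 h it was 38.0, 35.1 and 39.2 CPM in static and 61.4, 58.0 and 56.0 CPM in sheared cells. The groups did not overlap at either time, and the lowest sheared library stood well above the highest static one. The log2 fold change was 0.74 ± 0.13 (SE, adjusted p = 0.00181, edgeR) at 12 h and 0.64 ± 0.13 (adjusted p = 0.00223) at 24 h. At 3 h static cells had 23.3, 25.7 and 23.1 CPM and sheared cells 26, 20.2 and 21.1 CPM, so the groups overlapped and 2 of 3 pools were lower after shear (log2 fold change -0.11 ± 0.13, adjusted p = 0.903). The change in the shear effect itself passed the test for GAS5, as described below for all 10 genes.

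SNHG1, the host of SNORD22 and of the SNORD25 to SNORD31 group, lies at chr11:62851988-62855914. It had 29.8, 29.1 and 28.2 CPM in static and 50.0, 45.9 and 46.1 CPM in sheared cells at 12 h. The 24 h values were 26.6, 27.8 and 27.9 CPM in static and 41.3, 42.1 and 46.0 CPM in sheared cells. The static replicates were nearly equal, and every sheared library lay far outside their range. The log2 fold change was 0.70 ± 0.12 (adjusted p = 0.00135, edgeR) at 12 h and 0.65 ± 0.12 (adjusted p = 0.00116) at 24 h. At 3 h both groups were higher, at 49.9, 54.0 and 45.7 CPM in static and 58.5, 50.6 and 56.0 CPM in sheared cells, and they overlapped (0.14 ± 0.12, adjusted p = 0.830). GAS5 and SNHG1 passed at 12 h and 24 h under all 15 alternatives run.

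SNHG16, the most abundant of the 10 and the host of SNORD1A, SNORD1B and SNORD1C, lies at chr17:76557766-76565348. Its level at 12 h was 336, 229 and 306 CPM in static and 452, 338 and 421 CPM in sheared cells. At 24 h the values were 348, 373 and 411 CPM in static and 488, 446 and 529 CPM in sheared cells. Replicate 2 was lowest in both 12 h groups, and its sheared library exceeded the highest static library only narrowly. The log2 fold change was 0.48 ± 0.10 (adjusted p = 0.00594, edgeR) at 12 h and 0.37 ± 0.10 (adjusted p = 0.0185) at 24 h. At 3 h, 348, 330 and 358 CPM in static and 406, 411 and 389 CPM in sheared cells did not overlap either. That difference, 0.22 ± 0.10, did not pass (adjusted p = 0.507 in edgeR's fit of all libraries). SNHG16 was 1 of 3 genes higher after shear in all 9 pools, with SNHG7 and SNHG8.

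ZFAS1, the host of the SNORD12 group, runs antisense to the start of the zinc finger gene ZNFX1 and is known to associate with ribosomal subunits. It lies at chr20:49278178-49295738. Its 12 h level was 87.9, 76.0 and 82.0 CPM in static and 151, 111 and 93.6 CPM in sheared cells. At 24 h static cells had 88.5, 76.4 and 96.5 CPM and sheared cells 144, 105 and 142 CPM. The sheared libraries spread widely, with replicate 3 closest to static at 12 h and replicate 2 at 24 h, yet the groups did not overlap. ZFAS1 rose by 0.51 ± 0.12 on the log2 scale (adjusted p = 0.0103, edgeR) at 12 h and by 0.58 ± 0.12 (adjusted p = 0.00261) at 24 h. At 3 h the levels were 65.8, 61.4 and 59.5 CPM in static and 64.5, 69.0 and 61.4 CPM in sheared cells, which overlapped (0.06 ± 0.12, adjusted p = 0.941).

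SNHG6 hosts SNORD87 and followed ZFAS1 closely in level and response. Static cells had 58.7, 55.3 and 60.4 CPM and sheared cells 91.6, 86.3 and 72.7 CPM at 12 h. At 24 h these were 63.9, 49.8 and 58.3 CPM and 91.2, 70.1 and 98.6 CPM. The groups were apart at both times, with replicate 2 lowest on both sides at 24 h. Shear raised SNHG6 by 0.52 ± 0.12 on the log2 scale (adjusted p = 0.00931, edgeR) at 12 h and by 0.59 ± 0.12 (adjusted p = 0.00228) at 24 h. At 3 h, 44.7, 33.7 and 40.0 CPM in static and 48.7, 40.9 and 39.8 CPM in sheared cells overlapped (0.13 ± 0.12, adjusted p = 0.854). SNHG6 and ZFAS1 passed at 24 h under all 15 alternatives.

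SNHG8, with the box H/ACA snoRNA SNORA24 (a guide of pseudouridylation), lies at chr4:118278709-118279823. It had 9.22, 7.15 and 12.0 CPM in static and 12.8, 14.9 and 16 CPM in sheared cells at 12 h. At 24 h it had 14.7, 11.9 and 14.7 CPM in static and 21.4, 22.9 and 19.5 CPM in sheared cells. The 12 h groups nearly met, while those at 24 h were well apart. The rise of SNHG8 was 0.64 ± 0.17 on the log2 scale (adjusted p = 0.0209, edgeR) at 12 h and 0.63 ± 0.17 (adjusted p = 0.0146) at 24 h. At 3 h static cells had 12.2, 10.3 and 11.2 CPM and sheared cells 13.4, 12.8 and 13.3 CPM, with no overlap but a small difference (0.24 ± 0.16, adjusted p = 0.768).

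SNHG5 and SNHG7 passed at 12 h and not at 24 h, but the difference between the times did not pass the test (adjusted p = 0.852 and 0.766, edgeR). SNHG5, host of the SNORD50 pair, lies at chr6:85660950-85678748 and had 9.44, 8.82 and 12.6 CPM in static and 15.9, 18.6 and 15.1 CPM in sheared cells at 12 h (0.69 ± 0.17, adjusted p = 0.0155). At 24 h the values were 17.5, 13.7 and 19.3 CPM in static and 28.6, 15.4 and 27.1 CPM in sheared cells (0.46 ± 0.17, adjusted p = 0.0677). Sheared replicate 2 fell within the static range at 24 h, and the other two sheared libraries lay above it. SNHG7, host of SNORA17A and SNORA17B, lies at chr9:136721366-136728184 and had 2.39, 2.71 and 3.61 CPM in static and 3.71, 4.82 and 6.34 CPM in sheared cells at 12 h (0.76 ± 0.20, adjusted p = 0.0179). At 24 h it had 3.77, 5.32 and 7.57 CPM in static and 5.77, 7.33 and 8.44 CPM in sheared cells, which overlapped although each sheared library exceeded its own partner (0.40 ± 0.19, adjusted p = 0.150). SNHG7 held only 43 to 298 counts per library. Its 12 h call was lost without any 1 of the 12 h pools, without the pool block and with total counts as library size. At 3 h neither gene passed, with SNHG5 at -0.08 ± 0.17 (adjusted p = 0.953) and SNHG7 at 0.14 ± 0.17 (adjusted p = 0.904).

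SNHG12 and SNHG15 passed at no single time. SNHG12, host of SNORD99, SNORA16A, SNORA44 and SNORA61, lies at chr1:28578538-28583132 and was the scarcest, with 48 to 143 counts per library. Its levels were 2.67, 2.37 and 3.90 CPM in static and 3.60, 4.77 and 4.22 CPM in sheared cells at 12 h (0.51 ± 0.24, adjusted p = 0.192, edgeR). At 24 h they were 5.09, 4.50 and 5.37 CPM in static and 6.59, 3.75 and 8.97 CPM in sheared cells (0.30 ± 0.24, adjusted p = 0.401). The sheared 24 h libraries held both the lowest and the highest SNHG12 value of that time, so the groups overlapped entirely. SNHG15, host of SNORA9 and known as a short-lived RNA, lies at chr7:44983023-44986961 and did not pass the test at any of the 3 times. At 3 h it had 12.2, 14.4 and 14.1 CPM in static and 20.1, 19.0 and 16.4 CPM in sheared cells, which did not overlap (0.45 ± 0.19, adjusted p = 0.464). At 12 h its levels were 5.61, 4.58 and 5.82 CPM in static and 5.96, 5.69 and 11.3 CPM in sheared cells (0.47 ± 0.22, adjusted p = 0.173). At 24 h they were 6.28, 8.53 and 5.88 CPM in static and 7.34, 13 and 4.45 CPM in sheared cells (0.18 ± 0.22, adjusted p = 0.619). One sheared library stood high at each of the later times, replicate 3 at 12 h and replicate 2 at 24 h, and the groups overlapped. At 3 h edgeR called 0 of 10 genes, DESeq2 also called 0, and SNHG15 and SNHG16 were the 2 genes with an unadjusted p below 0.05. Both passed when the 3 h libraries were fitted alone.

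**Figure D3:**
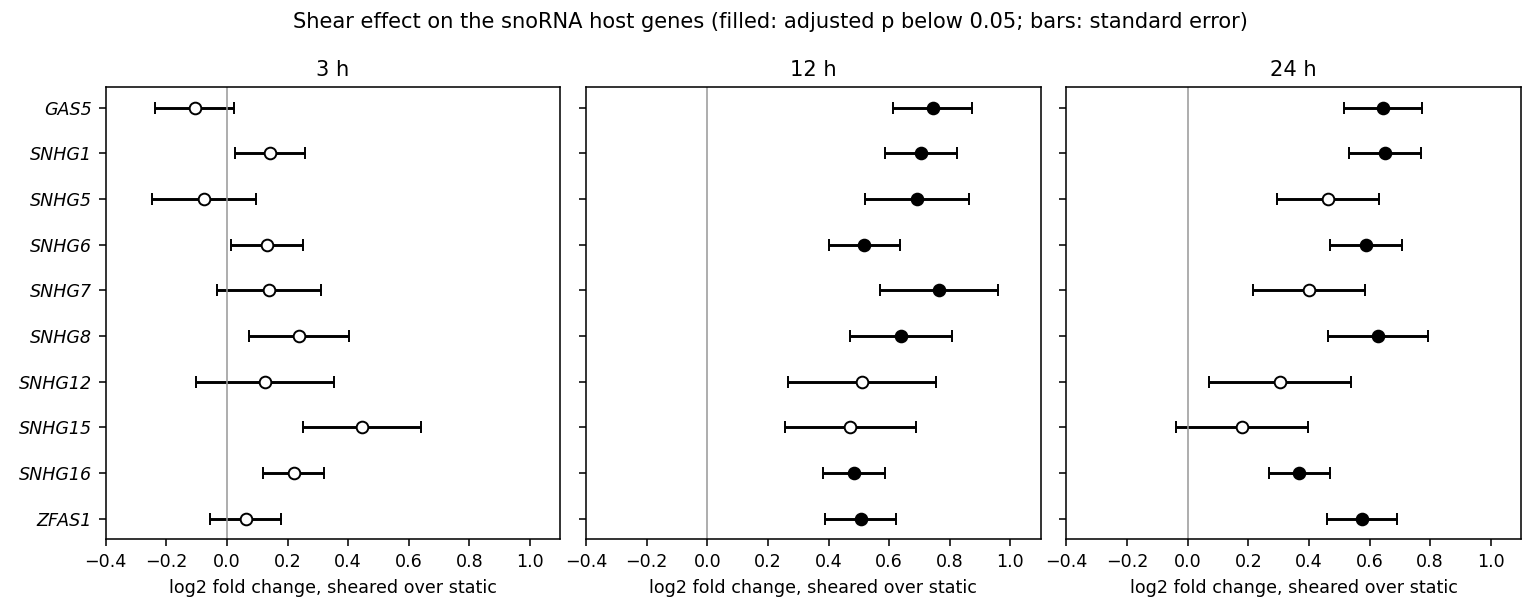
Log2 fold change of sheared over static cells for each host gene at 3, 12 and 24 h, with bars of 1 standard error and filled points where the adjusted p from edgeR was below 0.05. At 3 h no point is filled, at 12 h 8 are filled and lie between 0.48 and 0.76, and at 24 h 6 are filled and lie between 0.37 and 0.65.

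Complete separation, with every sheared library above every static one, was seen for 8 genes at 12 h (all but SNHG12 and SNHG15), where 14.6% of all genes tested showed it. The same was seen for 6 genes at 24 h (GAS5, SNHG1, SNHG6, SNHG8, SNHG16 and ZFAS1), against 7.49% of all genes. At 3 h it held for 3 genes (SNHG8, SNHG15 and SNHG16), against 9.93% of all genes. Pool by pool, SNHG7, SNHG8 and SNHG16 were higher after shear in 9 of 9 pools, SNHG1, SNHG6, SNHG12, SNHG15 and ZFAS1 in 8, and GAS5 and SNHG5 in 7. No share of all genes is at hand for these pool counts, so they are a description. Averaged over the 3 times, 9 genes rose and 0 fell, where 14.3% of all genes rose and 11.4% fell, and the exception was SNHG12 (0.31 ± 0.14, adjusted p = 0.0994, edgeR). The largest averages were those of SNHG8 (0.50 ± 0.10) and SNHG1 (0.50 ± 0.07).

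The difference between the shear effects of 2 times was tested in the same model. From 3 h to 12 h it passed for GAS5 alone, where the effect grew by 0.85 ± 0.18 on the log2 scale (adjusted p = 0.0256), and 1.41% of all genes passed in either direction. From 3 h to 24 h it again passed for GAS5 alone, at 0.75 ± 0.18 (adjusted p = 0.0187), where 5.89% of all genes passed. These calls on GAS5 rest on single pools: neither passed without replicate 2 or without replicate 3 of 3 h. The first also failed without replicate 1 or 2 of 12 h, when 0 of 10 genes passed. Both calls were also lost with total counts as library size and without the pool block. SNHG1 (0.56 ± 0.16, adjusted p = 0.109 from 3 h to 12 h) and SNHG5 (0.77 ± 0.24, adjusted p = 0.143) had the next smallest adjusted p. SNHG15 was the only gene with nearly the same effect at 3 h and 12 h (difference 0.03 ± 0.29, adjusted p = 0.985). Between 12 h and 24 h, 0 of 10 genes passed by edgeR, 0 had an unadjusted p below 0.05 and 0 passed by DESeq2, where 0.665% of all genes passed.

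Several of the same RNAs also differed between the 12 h and 24 h static libraries in the main fit. From 12 h to 24 h, 6 of 10 genes rose and 0 fell (edgeR, 9 static libraries), where 16.9% of all genes rose and 15.6% fell. The rises were those of SNHG7 (0.93 ± 0.27, adjusted p = 0.0136), SNHG12 (0.73 ± 0.24, adjusted p = 0.0274), SNHG5 (0.70 ± 0.20, adjusted p = 0.0124), SNHG8 (0.53 ± 0.19, adjusted p = 0.0418), GAS5 (0.46 ± 0.13, adjusted p = 0.0144) and SNHG16 (0.37 ± 0.14, adjusted p = 0.0488). SNHG15 (0.36 ± 0.20, adjusted p = 0.174), SNHG1 (-0.09 ± 0.13, adjusted p = 0.609), SNHG6 (-0.03 ± 0.14, adjusted p = 0.896) and ZFAS1 (0.08 ± 0.12, adjusted p = 0.663) did not pass. SNHG6 changed sign without 1 static 24 h library, and ZFAS1 without 1 such library or with total counts as library size. Scaled to total counts, which moved the median of all genes to -0.18, 1 gene rose. The count also depended on single libraries: it was 2 without static 12 h replicate 1, 0 without static 12 h replicate 2 and 1 without static 24 h replicate 3. MALAT1, the nuclear RNA, was lower in static cells at 24 h than at 12 h (-1.21 ± 0.22, adjusted p = 0.000827), and its part in this count was not tested. The keratins KRT8 (1.12 ± 0.17, adjusted p = 0.000134) and KRT18 (0.72 ± 0.15, adjusted p = 0.00194), the adhesion protein EPCAM (0.45 ± 0.15, adjusted p = 0.0263) and the protease TMPRSS2 (1.03 ± 0.30, adjusted p = 0.0242) rose over the same interval. So did 10 of 27 ribosomal protein genes that host snoRNAs (median 0.28), with 0 falls. Of 11 coding messengers known to be cleared by nonsense-mediated decay, 6 rose and 0 fell (median 0.50). Of 14 other noncoding hosts, 4 rose and 0 fell (median 0.43). TOP messengers that are not ribosomal proteins were divided, with 3 of 15 rising and 3 falling (median 0.01). Of 17 other coding hosts, 2 rose and 3 fell (median -0.16). VIM, checked in the line beside the keratins, did not pass (-0.05 ± 0.17, adjusted p = 0.841, edgeR).

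Most of these loci share exonic bases with a gene on the other strand, and without a stated strand setting the reads of such partners cannot be told apart. For SNHG7, 1094 exonic bases were shared with the coding gene DIPK1B (listed as FAM69B in GENCODE 29). DIPK1B was the more abundant, with 308 to 875 counts per library against 43 to 298 for SNHG7. DIPK1B rose as well, by 0.63 at 12 h (adjusted p = 0.00847, edgeR) and 0.58 at 24 h (adjusted p = 0.00938). ZFAS1, with 1308 to 2676 counts per library, shared 249 bases with ZNFX1, which had 280 to 1601. ZNFX1 went the other way from ZFAS1, at -0.35 at 12 h (adjusted p = 0.137) and -0.77 at 24 h (adjusted p = 0.00160). SNHG6 shared 365 bases with MCMDC2, whose counts were 7 to 42 per library against 790 to 1789 for SNHG6. GAS5 shared 42 bases with GAS5-AS1, which had 2 to 20 counts, and SNHG12 shared 8 with TRNAU1AP. SNHG16 shared 1639 bases with AC015802.6, whose level was not analysed here. No opposite-strand exons were annotated over SNHG1, SNHG5, SNHG8 or SNHG15.

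The snoRNAs themselves were barely sampled: of 35 rows for snoRNAs in these introns, 2 passed the filter. SNORD25, a box C/D snoRNA from SNHG1, is shown because it is the 1 snoRNA row that passed a test, with its box C and box D motifs (TGATGA and CTGA) in capitals.

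SNORD25, chr11:62855564-62855632, minus strand: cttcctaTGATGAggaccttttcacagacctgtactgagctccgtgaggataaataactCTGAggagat

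SNORD25 had 6, 5 and 10 counts in static and 23, 10 and 20 counts in sheared cells at 12 h. At 24 h it had 8, 1 and 6 counts in static and 19, 3 and 19 counts in sheared cells. Every sheared library exceeded its own static partner at both times, although the groups touched at 12 h and overlapped at 24 h. The log2 fold change was 1.78 ± 0.56 at 24 h (adjusted p = 0.0362, edgeR) and 1.31 ± 0.49 at 12 h (adjusted p = 0.101). At 3 h, 16, 34 and 23 counts in static and 48, 36 and 23 counts in sheared cells gave 0.41 ± 0.40 (adjusted p = 0.864). All 69 bases of SNORD25 lie within annotated exons of SNHG1, those of transcripts that keep the intron, so its reads can also come from unspliced SNHG1. The 24 h call held in 9 of 14 alternatives and was lost without replicate 1 or 3 of 24 h or replicate 2 of 3 h. SNORA61, from SNHG12, had 4 to 28 counts and did not pass at any time. SNORD80, SNORD22, SNORA16A and SNORA44 reached at most 14, 12, 11 and 18 counts in a library and were not tested.

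Other snoRNA hosts and related genes were counted in the same way, where 6.29% of all genes rose and 4.55% fell at 12 h, and 9.11% rose and 8.07% fell at 24 h. Among 14 other noncoding snoRNA hosts tested, 5 rose and 0 fell at 12 h (median 0.38), and 2 rose and 0 fell at 24 h (median 0.22). Those that rose at 12 h were SNHG29 (0.62 ± 0.12, adjusted p = 0.00345), SNHG17 (0.76 ± 0.16, adjusted p = 0.00545), SNHG3 (0.63 ± 0.16, adjusted p = 0.0169), SNHG32 (0.51 ± 0.14, adjusted p = 0.0232) and EPB41L4A-AS1 (0.53 ± 0.16, adjusted p = 0.0371), the last named after its value was seen. SNHG29 (0.56 ± 0.12, adjusted p = 0.00323) and SNHG3 (0.67 ± 0.16, adjusted p = 0.00751) rose again at 24 h. The coding hosts that make ribosomal proteins moved with the 10 genes. Of 27, 25 rose and 0 fell at 12 h (median 0.60), and 24 rose and 0 fell at 24 h (median 0.53). RPS12 (0.73 ± 0.13, adjusted p = 0.00191) was among those with the smallest p at 12 h, and RPL21 (0.62 ± 0.10, adjusted p = 0.000520) and RPSA (0.64 ± 0.11, adjusted p = 0.000583) at 24 h. Of 17 other coding hosts, 5 rose and 1 fell at 12 h and 4 rose and 1 fell at 24 h, with medians of 0.20 and 0.19. In that list EEF1B2, an elongation factor subunit, rose by 0.48 ± 0.11 at 12 h (adjusted p = 0.00953), and CHD8, a chromatin remodeller, fell by 0.41 on the log2 scale (adjusted p = 0.0183), a call lost without any 1 of the 12 h pools.

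TOP messengers that are not ribosomal proteins rose in 11 of 15 cases at 12 h. At 24 h, 13 of 15 rose, with 0 falls at either time (medians 0.45 and 0.57). Some also host snoRNAs: EEF1B2, RACK1, TPT1 and EEF2 are counted both here and among the other coding hosts. Apart from these shared genes, TAF1D was the only other coding host that rose at either time. EEF1D, an elongation factor subunit, rose by 0.62 ± 0.14 at 12 h (adjusted p = 0.00877), and NAP1L1, a histone chaperone, rose by 0.79 ± 0.14 at 24 h (adjusted p = 0.000662). The proteins that bind and assemble snoRNAs were divided. Of 18, 6 rose and 0 fell at 12 h and 5 rose and 0 fell at 24 h, with medians of 0.13 and 0.10. NOP10 of the H/ACA particle rose by 0.70 ± 0.12 (adjusted p = 0.00212) at 12 h, and FBL, the methyltransferase of the C/D particle, by 0.57 ± 0.11 (adjusted p = 0.00202) at 24 h. Without the pool block these 2 lists gave 1 and 0 rises at 12 h and 8 and 1 at 24 h, the other noncoding hosts 1 and 1, the other coding hosts 0 and 1, and the ribosomal protein hosts 18 and 20. At 12 h, leaving out replicate 1 or replicate 2 of that time left 16 or 8 rises among the ribosomal protein hosts, 2 or 1 among the other noncoding hosts, 0 or 1 among the other TOP messengers, 3 or 2 among the snoRNA-binding proteins and 0 in both cases among the other coding hosts. At 24 h, leaving out replicate 1 of that time left 15 rises among the ribosomal protein hosts and 1 among the other noncoding hosts, and leaving out replicate 2 or replicate 3 left 2 among the snoRNA-binding proteins. The other coding hosts gave 2 without replicate 3 of 24 h. Fitted on the 24 h libraries alone, 15 ribosomal protein hosts, 8 other TOP messengers, 2 other coding hosts, 1 other noncoding host and 1 snoRNA-binding protein rose. Scaled to total counts, the other noncoding hosts gave 2 rises at 12 h and the snoRNA-binding proteins 3 at 12 h and 1 at 24 h.

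Coding messengers known to be cleared by nonsense-mediated decay passed the test in 1 case at each time. Of 11, 1 rose at 3 h (ATF3, an early stress factor, 2.12 ± 0.31, adjusted p = 0.00895, lost without replicate 1 or 3 of 3 h), 1 fell at 12 h (ASNS, asparagine synthetase, by 0.42 on the log2 scale, adjusted p = 0.0498) and 1 fell at 24 h (ARFRP1, by 0.68, adjusted p = 0.0425). Among all genes, 1.12% rose at 3 h, 4.55% fell at 12 h and 8.07% fell at 24 h. The ASNS and ARFRP1 calls held in only 6 and 5 of 15 alternatives. The medians of the list were 0.03, 0.00 and 0.14 at 3, 12 and 24 h. Of 21 decay factors, 0 passed at 12 h, and 2 rose and 1 fell at 24 h, where 9.11% of all genes rose and 8.07% fell. Those were SMG8, a regulator of the kinase SMG1, which fell by 0.67 (adjusted p = 0.0149), and RNPS1 and EIF4A3, linked to the exon junction complex, which rose by 0.36 ± 0.10 (adjusted p = 0.0224) and 0.36 ± 0.12 (adjusted p = 0.0448). The EIF4A3 call held in 5 of 15 alternatives. The medians of the decay factors were -0.09 at 12 h and -0.02 at 24 h. Among 5 nuclear-retained RNAs, PVT1 rose at 12 h (0.93 ± 0.15, adjusted p = 0.000954), and TUG1 fell by 0.46 at 12 h (adjusted p = 0.0273) and by 0.40 at 24 h (adjusted p = 0.0385), the latter in 6 of 15 alternatives.

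**Figure D4:**
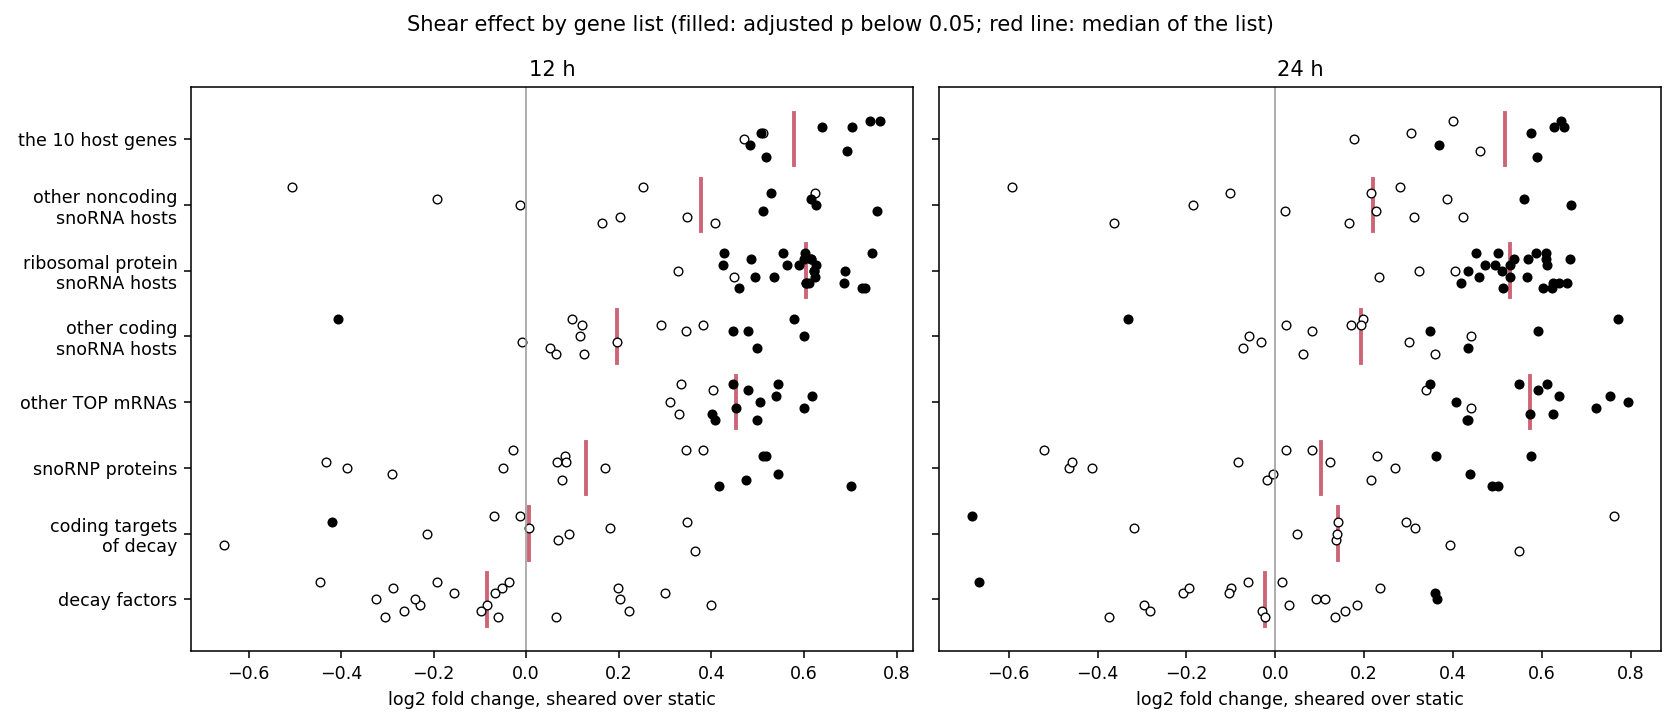
Log2 fold change of sheared over static cells at 12 h and 24 h for the 10 host genes and 7 related lists, 1 point per gene, filled where the adjusted p from edgeR was below 0.05, with a red line at the list's median. The 10 host genes, the ribosomal protein hosts and the other TOP messengers lie wholly above 0 at both times. The other noncoding hosts, other coding hosts, snoRNA-binding proteins, decay factors and coding targets of decay lie on both sides of 0.

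Genes whose level over the 18 libraries was most like the mean of the 10 host genes were RHOD (r = 0.92, Spearman's rho 0.90), CTDNEP1 (r = 0.91, rho 0.89), FST (r = 0.91, rho 0.94), CCDC124 (r = 0.89, rho 0.77) and FTSJ1 (r = 0.89, rho 0.80), out of 12277 genes ranked. These values are a description, since libraries share time, batch and treatment. Among the 10 genes, SNHG8 (r = 0.93) and SNHG16 (r = 0.91) were closest to their common mean, of which each is a part, and SNHG1 (r = 0.46) and SNHG15 (r = 0.12) were furthest. The 5 like genes were picked for likeness to a mean that is itself higher after shear at 12 h and 24 h. Their rises follow in part from that choice, and their tests are a description too. All 5 rose at both times, although CTDNEP1 at 24 h passed in only 5 of 15 alternatives. Examples are RHOD, a small GTPase, by 0.96 ± 0.11 at 12 h (adjusted p = 7.41e-05) and FST, the activin-binding protein follistatin, by 1.33 ± 0.11 (adjusted p = 4.82e-06). FST also rose at 3 h (0.57 ± 0.10, adjusted p = 0.00599), a call lost without any 1 of the 3 h pools, when none of the 10 host genes passed.

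The authors' deposited tables hold their own test of each time. At 12 h 7 of the 10 genes had an adjusted p below 0.05 in the authors' deposited table, and SNHG5 had 0.0532. At 24 h the authors' deposited table gave 5 of 10, with SNHG16 at 0.0590, and at 3 h it gave 0.999676 for all 10.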

How the data were processed

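The 18 libraries hold cytosolic RNA of sheared and static PC-3 cells, 3 of each at 3, 12 and 24 h. Per the submitters' processing notes the authors used STAR, GRCh38.p13 and DESeq2 (tool versions, read counter, strandedness: not given in the sources used here). Their deposited table holds the authors' raw counts per Gene ID. The authors' deposited comparisons hold a log2 fold change per gene (sheared against static) and, per the file headers, p-values and adjusted p-values. Columns of 3 h libraries were matched by time and letter, the treatment letter read as in the later names.

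Symbols came from RefSeq (GRCh38.p14, names only) for 27745 of 28395 Gene IDs; exons, overlaps and transcript starts came from GENCODE 29. Genes were kept by filterByExpr (minimum count 10, minimum total 15). edgeR 4.0.16 in R 4.3.3 used TMM factors and the legacy quasi-likelihood test with robust dispersion, in 1 model with 9 pool blocks and 3 shear effects, 1 for each time (6 residual degrees of freedom). Adjustment ran over 15189 genes (14804 for static cells) at 0.05. Standard errors are the fitted log2 change divided by the root of F. Correlations used log2 CPM with a prior count of 2. P-values of the shear effects rest on how the sheared-static difference varied between pools of 1 line, with 1 spread estimate shared over times. The static fit had no block, so its p-values rest on the spread between static libraries of a time. Intervals of low counts are wide at this depth (16400487 to 25862360 counts per library).

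Per the series' design text, the sheared and static libraries of 1 replicate within a time share a pool. As a check, deviations from group means correlated between same-numbered libraries at 0.0881 to 0.299 (3 h), -0.148 to 0.245 (12 h) and 0.379 to 0.504 (24 h), against -0.242 to 0.130, -0.385 to 0.233 and -0.296 to -0.0924 for other pairs. No 2 libraries were identical.

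The 10 genes and the other lists were chosen with earlier results of these data known. The text names all 10, MALAT1, up to 4 genes of each list by p at each time, the 5 genes most like their mean (mean log2 CPM of at least 1), and snoRNAs with at least 10 counts in a library; a few of these and of the overlapping genes are not reported here. The mean over times was added after seeing the data. Alternatives were total counts as library size, DESeq2 size factors, no filter, DESeq2 1.42.0, no pool block, each time alone, and leaving out each replicate. The fit was tested on simulated counts.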

Additional observations from a re-analysis of the deposited data

Results flagged for a closer look

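The shear effect on GAS5 differed between times. Its shear effect was larger at 12 h than at 3 h by 0.85 ± 0.18 on the log2 scale (adjusted p = 0.0256 by edgeR's test of the difference). The adjusted p ranged from 0.00296 to 0.197 over the 14 alternatives, and the call held in 8 of them. The effect was larger at 24 h than at 3 h by 0.75 ± 0.18 (adjusted p = 0.0187, range 0.00364 to 0.130), a call that held in 10 of 14 alternatives. The sheared library exceeded its partner in 1 of 3 pools at 3 h and in all 3 at each later time. The 3 h libraries have a batch label of their own, so time and batch cannot be told apart in these differences.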

How the results depend on the processing

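Scaling to total counts moved the median log2 fold change of all genes to -0.16 at 12 h and -0.18 at 24 h (main values -0.01 and -0.02), and that of the 10 host genes to 0.43 and 0.35. Under it 6 genes rose at 12 h, 4 at 24 h, 1 in static cells, and 0 in the differences of 12 h or 24 h from 3 h. With no replicate block for the shared pool, 2 rose at 12 h, 5 at 24 h and 0 in both differences from 3 h. DESeq2 gave 2 in the difference of 24 h from 3 h, and the 3 h libraries alone gave 2 at 3 h; the cause was not tested. Leaving out 1 replicate gave 2 to 8 rises at 12 h, 5 to 7 at 24 h, 0 to 2 in each difference from 3 h and 0 to 5 in static cells, with fewer pools to test. No gene fell under any setting run. In sign, GAS5 at 3 h ranged from -0.245 to 0.00864 when 1 replicate (both libraries of a pool) was left out and SNHG15 at 24 h from -0.0731 to 0.448. In static cells, where 1 library was left out, SNHG6 ranged from -0.115 to 0.0543 and ZFAS1 from -0.0111 to 0.157; ZFAS1 reached -0.113 with total counts. Depth limits SNHG7, SNHG12 and the snoRNAs.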
